A study of Mus musculus with 14 samples.

Results

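The AP-1 and EGR immediate early factors were followed in the corpus callosum and in cultured oligodendrocytes from mice or cells labelled Qk-KO and WT. They were taken by symbol from the 2 deposited tables of gene statistics. The set holds Fos, Fosb, Fosl2, Jun, Junb, Jund, Atf3, Egr1, Egr2 and Dusp1, which are 10 of the 46983 genes in each table. All 10 had enough reads to be tested in both tables. Qk encodes quaking, an RNA-binding protein of myelinating glia.

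The callosum libraries came from FvB/C57BL6 hybrid mice that carried Plp-CreERT2, a tamoxifen-inducible Cre recombinase driven in myelinating glia. The 4 libraries labelled Qk-KO had the genotype Plp-CreERT2;QKLoxP/LoxP, and the 4 labelled WT had Plp-CreERT2;QKLoxP/+, so the controls also held 1 floxed Qk copy and the Cre. All of these mice were given tamoxifen at 8 weeks of age, and tissue was taken 4 days later. The cultures were oligodendrocytes differentiated from neural stem cells of the same hybrid background, with 3 libraries per genotype at passages 7, 12 and 13, in Neurobasal medium with B-27, GlutaMAX-I, triiodothyronine at 50 ng/ml and IGF-1 at 100 ng/ml. The descriptions carry 40HT for each culture labelled Qk-KO and EtOH for each culture labelled WT, so this treatment and the genotype cannot be told apart there. The Cre driver of the cultured cells is not given in the sources used here. The labels do not say whether each library is a separate animal or culture, so the deposited p-values measure the spread between libraries, which may in part be technical. In culture each passage had a library of each genotype, so the spread within a genotype there takes in differences between passages. The deposited fit did not use this pairing, since its fitted means follow the genotype alone.

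Immediate early genes are switched on within minutes of a stimulus without new protein synthesis. FOS and JUN family proteins pair through leucine zippers to form AP-1, which binds a short palindromic site. ATF3 is a stress-induced relative that can pair with JUN proteins and often acts as a repressor. EGR1 and EGR2 are zinc finger factors that bind GC-rich sites, and EGR2 is known as a master regulator of myelin genes in Schwann cells of peripheral nerve. DUSP1 is a phosphatase that switches off the MAP kinases whose signals induce these genes.

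The sequences upstream of 4 members with a called genotype difference are shown because immediate early genes are known for serum response and cyclic AMP response elements close to their starts. They are from RefSeq on GRCm38.p6, each written 5′ to 3′ on the gene's strand and ending at the base before an annotated start, except that the Dusp1 stretch stops 47 bases short of its start, where a GENCODE exon of Dusp1 begins. The last 7 bases of the Atf3 window lie in an Atf3 exon of the GENCODE annotation. Capitals mark matches to a motif.
Egr2, chr10:67537619-67537868, plus strand: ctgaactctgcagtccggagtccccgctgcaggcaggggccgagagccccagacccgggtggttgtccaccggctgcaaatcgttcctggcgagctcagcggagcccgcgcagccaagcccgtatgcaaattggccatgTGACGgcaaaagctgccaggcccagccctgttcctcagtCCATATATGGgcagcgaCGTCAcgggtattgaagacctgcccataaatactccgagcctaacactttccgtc
Fos, chr12:85473640-85473889, plus strand: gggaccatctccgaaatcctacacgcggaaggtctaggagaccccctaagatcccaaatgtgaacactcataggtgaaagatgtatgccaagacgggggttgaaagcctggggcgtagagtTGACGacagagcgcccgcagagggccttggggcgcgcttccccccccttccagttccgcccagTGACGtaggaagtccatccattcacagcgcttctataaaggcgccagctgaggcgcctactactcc
Dusp1, chr17:26508520-26508722, minus strand: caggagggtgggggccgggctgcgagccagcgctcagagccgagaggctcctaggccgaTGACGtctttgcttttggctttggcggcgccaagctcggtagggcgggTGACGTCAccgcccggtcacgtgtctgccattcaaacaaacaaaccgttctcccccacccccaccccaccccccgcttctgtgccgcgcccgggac
Atf3, chr1:191183334-191183583, minus strand: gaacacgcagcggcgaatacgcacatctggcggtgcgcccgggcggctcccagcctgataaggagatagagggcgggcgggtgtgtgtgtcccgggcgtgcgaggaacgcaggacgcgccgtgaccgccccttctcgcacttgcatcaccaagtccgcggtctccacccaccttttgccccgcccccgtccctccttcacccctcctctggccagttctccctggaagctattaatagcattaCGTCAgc

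The motifs searched on both strands, over the 250 bases upstream of each start, were the cyclic AMP response element TGACGTCA, its core TGACG (which lies within it), the AP-1 site TGACTCA, the Jun variant TGACATCA, the EGR site GCGNGGGCG and the CArG box of serum response factor. Dusp1 held a full TGACGTCA from 143 to 136 bases before its start, as did 1.55% of all 32817 windows of this length. The Egr2 window shown held the CArG box CCATATATGG from 72 to 63 bases before its start, as did a CArG box in 1.47% of all windows. The Egr2, Fos, Dusp1 and Atf3 windows each held the core TGACG on one strand or the other, which was found in 17.7% of all windows. The Atf3 match, from 7 to 3 bases before the start, lies within the annotated Atf3 exon. Egr2 has 5 annotated starts, and its most upstream window held none of these motifs. The next window held a different CArG box, CCTTTTTTGG, and the last windows overlap the one shown and hold the same CCATATATGG. The window shown was taken from these 5, while the share of all windows counts each window singly. Among members not shown, Fosb and Junb, neither of them called in either table, also held the core TGACG, so it is not particular to the 4 shown. Jun held TGACATCA from 45 to 38 bases before its start (2.93% of all windows), and Fosb and Fosl2 each held GCGGGGGCG (4.70%). All 250 bases of the Fosl2 window lie in a Fosl2 exon of the GENCODE annotation, so the Fosl2 match is in annotated exon. A match is a description of the letters, and no match says only that they are not in that window. Egr1 was not included in this search.

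The library columns of both tables were found to hold fitted means, which differ within a genotype by 1 constant factor per library. Levels are therefore given once per genotype, as fitted CPM (a gene's fitted counts in each 1000000 of its library), and the spread between libraries entered only through the standard error (SE) of the fold change. Fitted totals were 15048646 to 27666519 per callosum library and 38325833 to 48912999 per culture library. A gene was called at an adjusted p under 0.05 in the authors' deposited table (DESeq2 Wald test), and 2.32% of 19935 tested genes were called in callosum and 28.6% of 17503 in culture. Qk RNA, the targeted transcript counted over the whole gene, had log2 changes of 0.32 ± 0.12 (SE) in callosum and 0.66 ± 0.14 in culture (adjusted p = 0.162 and 4.19e-05) in the authors' deposited table, so it was not lower in libraries labelled Qk-KO, and this count does not check the deletion. Oligodendrocyte markers were measured in both systems, with Mbp at 2925 CPM in WT callosum and Cnp at 654 CPM in WT culture. Of the 12 such markers listed, Cnp, Ugt8a and Myrf had a higher CPM in WT culture than in WT callosum, and the others a lower one. Mobp stood at 577 CPM in WT callosum and 7.66 CPM in WT culture, and Mal at 483 and 6.84 CPM. Ermn had 148 and 1.53 CPM. Other cell types were present as well. In WT callosum the neuron marker Map2 stood at 1791 CPM and the astrocyte marker Slc1a2 at 2568 CPM, and in WT culture the astrocyte marker Gfap stood at 4008 CPM. In bulk RNA, fewer cells of a type and less RNA per cell cannot be told apart.

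In the corpus callosum, Atf3 rose in libraries labelled Qk-KO and no other member passed the test. Its fitted level went from 0.898 CPM in WT to 3.12 CPM in Qk-KO. This was a 3.42-fold rise (log2 1.78 ± 0.36 SE, 95% interval 1.07 to 2.48, adjusted p = 9.33e-05, n = 4 per genotype) in the authors' deposited table. Atf3 was the member with the lowest level per kilobase of exon in WT callosum, at the 11.3 percentile of tested genes, and stood at the 32.2 percentile in Qk-KO. One member of 10 was called higher, against 2.09% of all tested genes, and 0 of 10 were called lower, against 0.231%. At an unadjusted p under 0.05 there were 3 members, Atf3, Egr2 and Junb.

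Egr2 had the next largest difference in callosum and did not pass. Libraries labelled WT were fitted at 2.74 CPM and those labelled Qk-KO at 4.65 CPM, a log2 difference of 0.74 ± 0.27 (95% interval 0.21 to 1.27, adjusted p = 0.185) in the authors' deposited table. A log2 difference of 0.88 would have been needed to pass at this SE. Junb, an AP-1 subunit with weaker activating capacity than Jun, had 27.9 CPM in WT and 39.2 CPM in Qk-KO, a difference of 0.47 ± 0.22 (adjusted p = 0.543) in the authors' deposited table. Egr1 had 63.1 and 86.5 CPM, a difference of 0.43 ± 0.28 (adjusted p = 0.874) in the authors' deposited table.

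The FOS genes and the remaining JUN genes lay close to 0 in callosum. Fos, the prototype immediate early gene, had 12.3 CPM in WT and 14.5 CPM in Qk-KO (log2 0.21 ± 0.27, adjusted p = 1.00 when rounded) in the authors' deposited table. Fosb, the source of the long-lived deltaFosB protein, had 0.04 ± 0.27, and Fosl2, which encodes Fra-2, had -0.02 ± 0.25 in the authors' deposited table. Jun was at 50.9 CPM in WT and 44.0 CPM in Qk-KO (-0.23 ± 0.14, 95% interval -0.50 to 0.03), and Jund, the constitutive JUN gene, at 51.6 and 51.5 CPM (-0.03 ± 0.17), in the authors' deposited table. Dusp1 had 17.4 CPM in WT and 20.4 CPM in Qk-KO (0.21 ± 0.16, 95% interval -0.11 to 0.53) in the authors' deposited table. The intervals leave room for changes of either sign for Fos, Fosb, Fosl2, Jun, Jund, Egr1 and Dusp1. The 10 values ran from -0.23 to 1.78, with a median of 0.21 against -0.01 over all tested genes.

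**Figure D1:**
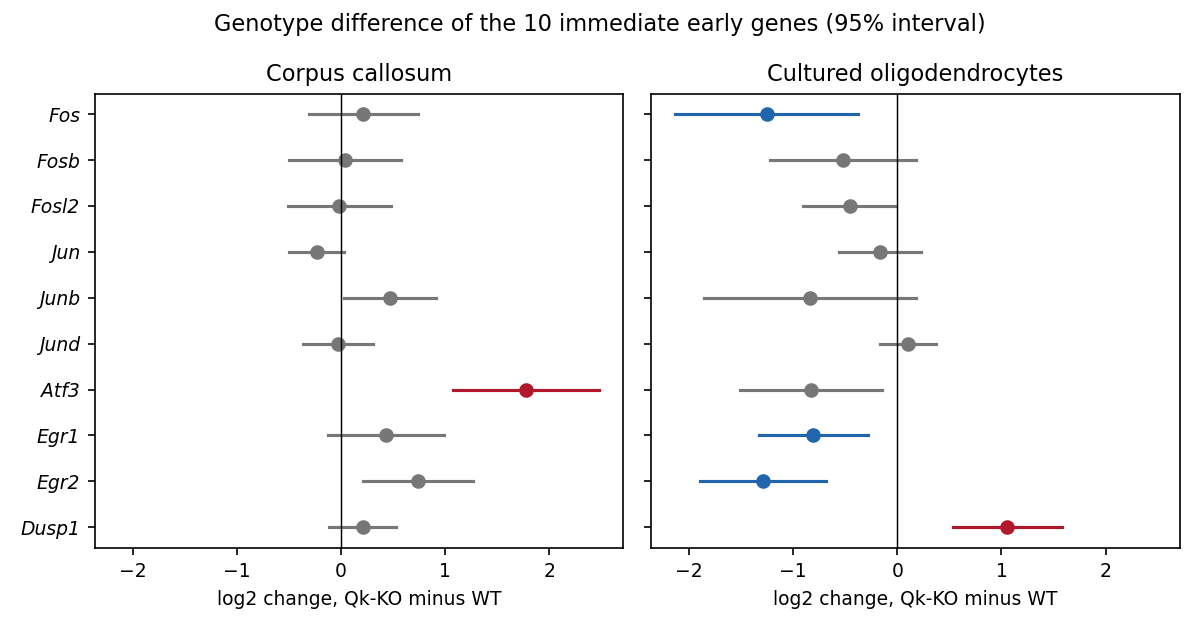
Log2 change of each member (labelled Qk-KO minus WT, x axis) in corpus callosum (left, 4 libraries per genotype) and culture (right, 3 per genotype), from the authors' deposited table. Points are the estimates and bars their 95% intervals; red marks called higher, blue called lower and grey not called. Atf3 at 1.78 is the one called member in callosum, while Fos, Egr1 and Egr2 lie below 0 and Dusp1 above it in culture.

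In culture, 3 members fell and 1 rose. Egr2 and Fos fell most in libraries labelled Qk-KO, Egr1 fell less, and Dusp1 rose. Egr2 went from 3.23 CPM in WT to 1.39 CPM in Qk-KO, a fall to a level 2.45-fold lower (log2 -1.29 ± 0.31 SE, 95% interval -1.90 to -0.69, adjusted p = 0.000245, n = 3 per genotype) in the authors' deposited table. Fos went from 64.3 to 28.4 CPM (-1.25 ± 0.45, 95% interval -2.13 to -0.37, adjusted p = 0.0221) in the authors' deposited table. Egr1 went from 19.7 to 11.9 CPM (-0.81 ± 0.27, adjusted p = 0.0119) in the authors' deposited table. Dusp1 went the other way, from 2.57 to 5.63 CPM, a 2.08-fold rise (1.06 ± 0.27, 95% interval 0.54 to 1.58, adjusted p = 0.000543) in the authors' deposited table. The 3 called lower compare with 15.2% of all tested genes and the 1 called higher with 13.3%, so 4 of 10 members were called where 28.6% of all tested genes were.

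The other 6 members did not pass in culture, and 5 of them had values below 0. Atf3 had 4.41 CPM in WT and 2.62 CPM in Qk-KO, a log2 difference of -0.83 ± 0.35 (adjusted p = 0.0585; the authors' deposited table). Junb had 33.6 and 19.8 CPM, a difference of -0.84 ± 0.52 (95% interval -1.86 to 0.18, adjusted p = 0.241) in the authors' deposited table. Its SE was so wide that a difference of 1.27 would have been needed to pass. Fosl2 had -0.46 ± 0.23 (adjusted p = 0.125) and Fosb -0.52 ± 0.36 (adjusted p = 0.299) in the authors' deposited table.

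Jun and Jund, both abundant in the cultures, were measured more tightly. Jun stood at 100.7 CPM in WT and 94.7 CPM in Qk-KO (-0.17 ± 0.20, 95% interval -0.56 to 0.23), and Jund at 56.3 and 63.7 CPM (0.10 ± 0.14, 95% interval -0.17 to 0.37), in the authors' deposited table. Both lay at or above the 93.2 percentile of tested genes per kilobase in each genotype. The 10 values ran from -1.29 to 1.06 with a median of -0.66, against 0.01 over all tested genes, and 8 of 10 were below 0.

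With a t distribution on the 6 and 4 residual degrees of freedom in place of the normal reference for the deposited DESeq2 score, 0 members passed in either table (2 in callosum and 4 in culture at an unadjusted p under 0.05, against 3 and 6 in the deposited DESeq2 test). Under that reference, 8 of all 19935 tested genes passed in callosum and 0 of 17503 in culture, so the members' count says nothing particular to them. At an adjusted p under 0.01, Fos and Egr1 were no longer called in culture, which left Egr2 and Dusp1.

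Levels per kilobase of exon were compared within each family. In WT callosum, Jund gave 52.4% of the summed level of the 3 JUN genes, Jun 27.0% and Junb 20.5%; in Qk-KO these shares were 50.0%, 22.4% and 27.6%. In WT culture the JUN shares were 42.3% for Jund, 39.5% for Jun and 18.2% for Junb, and in Qk-KO they were 49.9%, 38.8% and 11.3%. In WT culture, Fos gave 93.2% of the summed level of Fos, Fosb, Fosl1 and Fosl2, against 87.1% in Qk-KO, and the family's sum went from 29.3 to 13.9 CPM per kilobase. In callosum, where Fosl2 gave 31.2% of the FOS family in WT, the sum was 10.3 in WT and 11.6 CPM per kilobase in Qk-KO. Egr1 gave 62.5% of the EGR family in WT callosum and 80.4% in WT culture, where Egr3 and Egr4 together with Egr2 made up the rest. Egr2 held 3.58% of that family in WT callosum and 4.55% in Qk-KO, and 17.4% and 12.7% in culture. These shares come from fitted means and carry no error of their own.

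**Figure D2:**
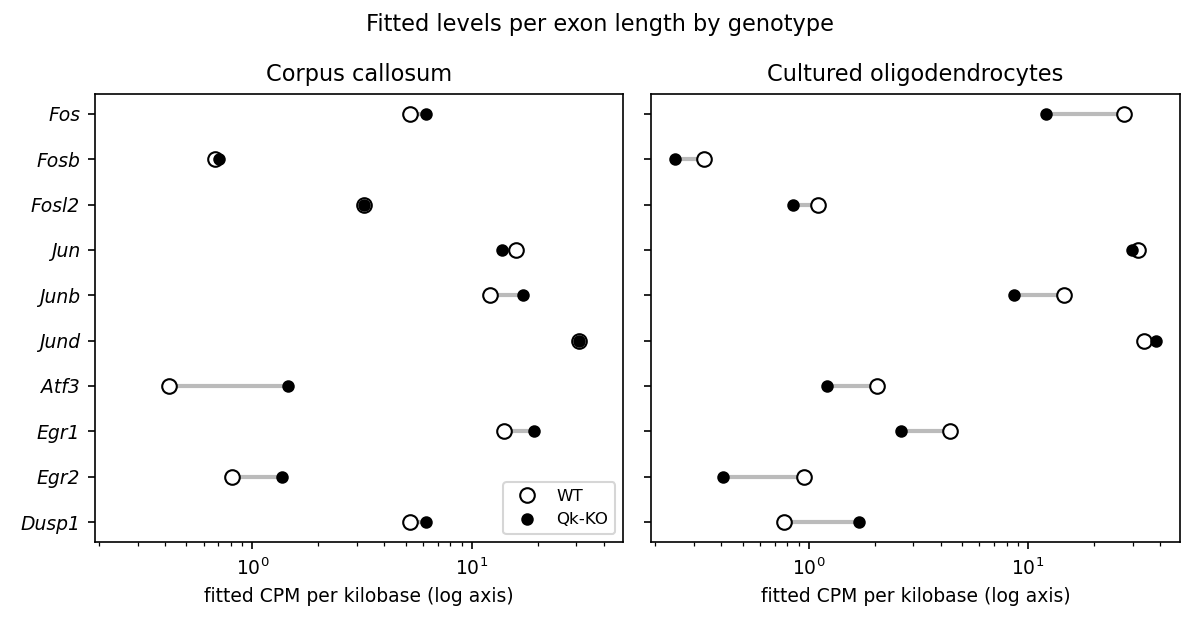
Fitted level of each member in CPM per kilobase of exon (x axis, log scale), with open circles for WT and filled circles for Qk-KO, in corpus callosum (left) and culture (right). Each circle is a fitted mean per genotype with no spread of its own; Jund is highest in both systems, at 30.9 in WT callosum and 33.8 in WT culture, and the widest gap is that of Atf3 in callosum (0.417 to 1.45).

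The genotype difference was called as unlike between tissue and culture for 5 of 10 members, against 21.5% of all genes tested in both. The tables share no library, and each difference of log2 changes (culture minus callosum) went into a z test built from both DESeq2 estimates and SEs, adjusted over those 16601 genes. If the authors' fit shrank fold changes toward no change, it may have done so unequally in tissue and culture, which was not allowed for. The contrasts are also unlike, since treatment goes with the label in culture only, and this was not allowed for either. Atf3 differed most, by -2.61 ± 0.50 (95% interval -3.59 to -1.62, adjusted p = 4.65e-06), with 1.78 in callosum and -0.83 in culture. Egr2 differed by -2.03 ± 0.41 (95% interval -2.84 to -1.23, adjusted p = 1.51e-05), with 0.74 in callosum and -1.29 in culture. Fos differed by -1.47 ± 0.52 (adjusted p = 0.0276) and Egr1 by -1.24 ± 0.39 (adjusted p = 0.0104). Dusp1 differed in the other direction, by 0.85 ± 0.31 (adjusted p = 0.0343).

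The remaining 5 members were not called for this difference. Junb had -1.30 ± 0.57 (adjusted p = 0.0843), Fosb -0.56 ± 0.45 and Fosl2 -0.44 ± 0.34. Jun had 0.07 ± 0.24 (95% interval -0.41 to 0.54) and Jund 0.13 ± 0.22 (95% interval -0.30 to 0.56), the narrowest intervals of the set. Of the 10 members, 4 were called with culture below callosum, against 11.7% of all genes tested in both, and 1 with culture above, against 9.84%. The members positive in callosum and negative in culture were 6 of 10 (Fos, Fosb, Junb, Atf3, Egr1 and Egr2), against 23.7% of all genes. This counts signs without regard to error. Among these members only Atf3 was called in callosum, and it was not called in culture, so none was called in opposite directions. With a t distribution on 10 degrees of freedom, Atf3 and Egr2 were still called, and Fos, Egr1 and Dusp1 were not (adjusted p = 0.102, 0.0688 and 0.113), with 1970 of all 16601 genes called.

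**Figure D3:**
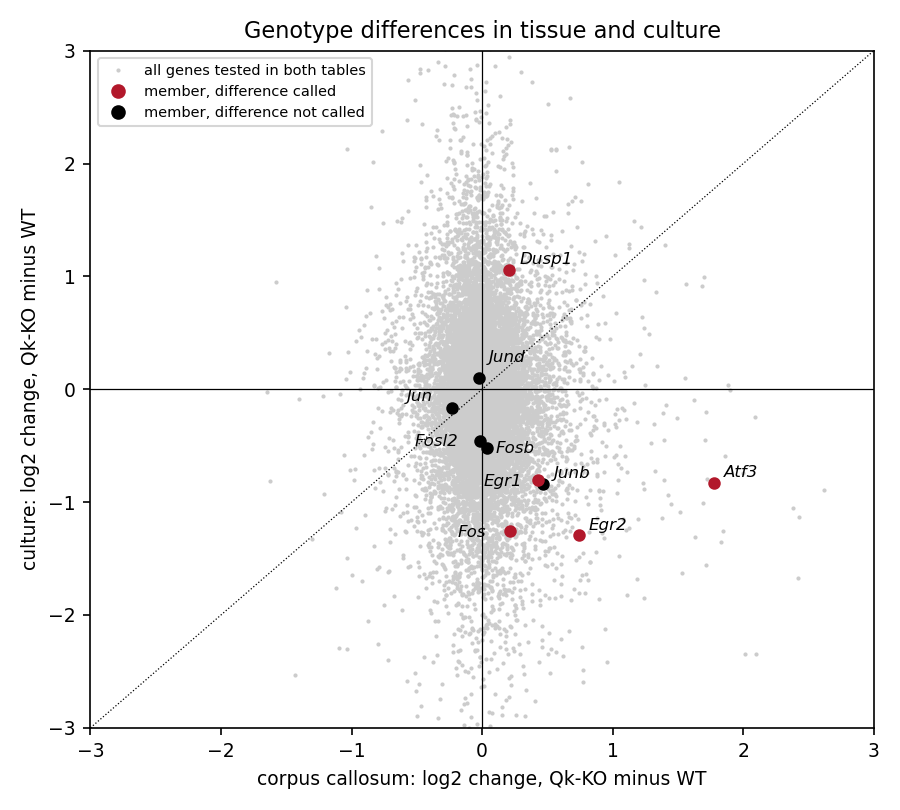
Log2 change (labelled Qk-KO minus WT) in corpus callosum (x axis) and in culture (y axis) for the 16601 genes tested in both tables (grey; axes limited to -3 to 3) and the 10 members, red where the difference between systems was called. The dotted line marks equal changes; Atf3 (1.78, -0.83) and Egr2 (0.74, -1.29) lie farthest below it among the members, and Dusp1 (0.21, 1.06) above it.

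The spread between libraries was wide for these genes for their level. Each member's SE was set beside the median SE of all tested genes with a mean normalized count within 1.5-fold of its own. In callosum, 10 of 10 members had an SE above that median, by a factor of 1.09 (Egr2) to 2.53 (Egr1), with a median factor of 1.34. Egr1 had an SE of 0.28 against 0.11, larger than that of 98.6% of those genes. In culture, 9 of 10 lay above, and Jund alone lay below, at 0.93 times the median. Junb had 3.24 and Fos 2.99 times the median, with an SE larger than 99.1% and 99.2% of genes of like mean, so the fall of Fos carries one of the widest errors for its level. Egr2 and Dusp1 in culture had SEs close to the median (factors of 1.01 and 1.04). The SE stands in for the values of single libraries here, and no library could be left out. In culture the SE also takes in differences between passages.

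**Figure D4:**
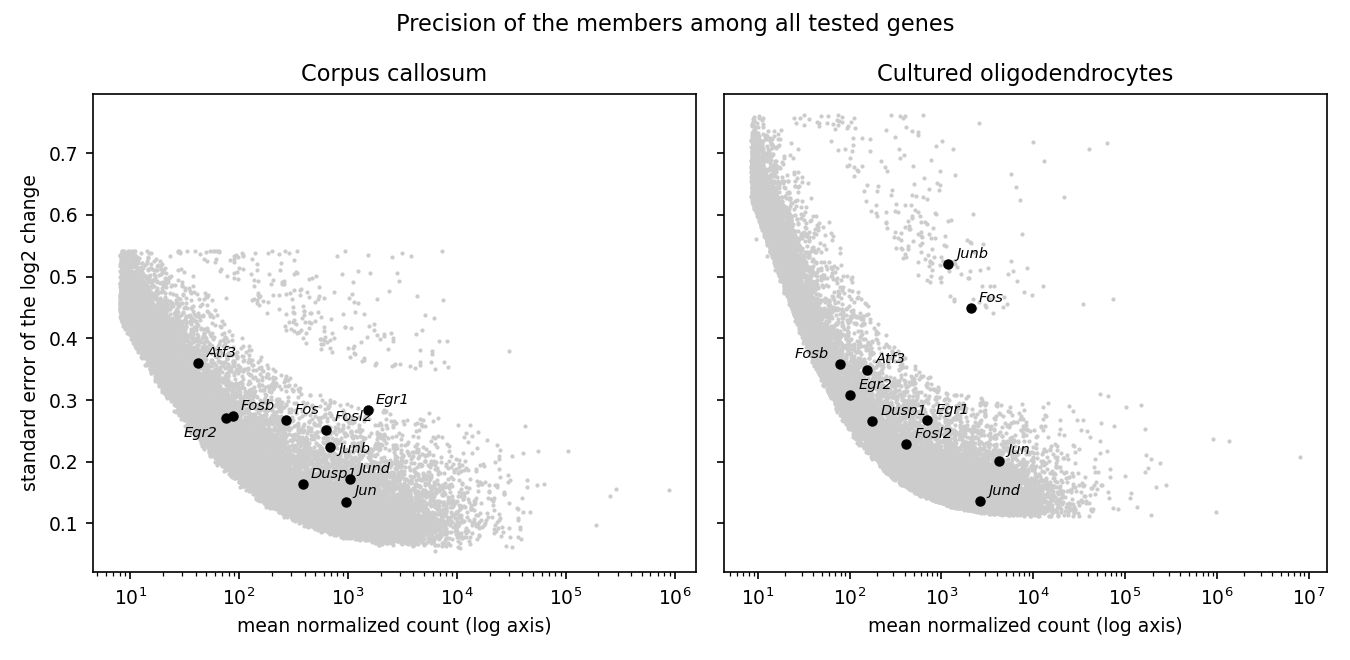
Standard error of the log2 change (y axis) against the mean normalized count (x axis, log scale) for all tested genes (grey) and the 10 members (black, named) in corpus callosum (left) and culture (right). Fos (0.45) and Junb (0.52) in culture lie above the main body of genes of their level, in a sparse upper band.

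The related lists are given by their counts, to be read against all tested genes, of which 2.32% were called in callosum and 28.6% in culture (13.3% higher and 15.2% lower). Of 19 tested AP-1, ATF, Maf and related bZIP genes outside the set, 0 were called in callosum by the deposited DESeq2 test (2 at an unadjusted p under 0.05, list median 0.09), and in culture 1 rose and 4 fell (median -0.07), a share near that of all tested genes. Nfe2l2, which encodes the oxidative stress factor Nrf2, fell by 1.63 ± 0.15 log2 units (adjusted p = 2.27e-24), Nfe2l1 by 0.60 ± 0.13 and Bach1, a repressor at the same sites, by 0.67 ± 0.17 in the authors' deposited table. Jdp2, a repressive partner of JUN proteins, rose by 0.44 ± 0.16 (adjusted p = 0.0224) in the authors' deposited table. Atf4, the abundant factor of the integrated stress response, had 0.24 ± 0.12 in culture without passing in the authors' deposited table. Of Egr3, Egr4, Nab1 and Nab2, 4 were tested in callosum and 3 in culture, and 0 passed by the deposited DESeq2 test, also at an unadjusted p under 0.05. Nab1, a corepressor that binds EGR proteins, had -0.05 ± 0.10 in callosum and 0.17 ± 0.15 in culture in the authors' deposited table.

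Of 32 tested immediate early genes outside the AP-1 and EGR families, 2 rose in callosum (median 0.14), and in culture 6 rose and 2 fell (median 0.15), where 28.6% of all tested genes were called. In callosum the matricellular gene Cyr61 rose by 0.80 ± 0.22 (adjusted p = 0.0152) and the kinase gene Plk3 by 0.55 ± 0.15 (adjusted p = 0.0149) in the authors' deposited table. In culture the kinase gene Sgk1, known for its induction by glucocorticoids and serum, rose from 117 to 336 CPM (1.44 ± 0.19, adjusted p = 4.31e-13), Plk2 rose by 1.12 ± 0.21, and Homer1 by 0.74 ± 0.14 (the authors' deposited table). Gadd45b fell by 0.70 ± 0.20 and Ier3 by 0.83 ± 0.30 (adjusted p = 0.00344 and 0.0244) in the authors' deposited table. Mcl1, an anti-apoptotic gene, had 0.13 ± 0.15 in culture, and the synaptic scaffold gene Homer1 0.08 ± 0.35 in callosum, in the authors' deposited table.

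Of 25 MAP kinases and activating kinases, 0 were called in callosum by the deposited DESeq2 test, also at an unadjusted p under 0.05 (median -0.04), while of 24 tested in culture 8 rose and 2 fell (median 0.10), against 13.3% higher and 15.2% lower among all tested genes. Mapk8, which encodes the JUN kinase JNK1, rose by 0.90 ± 0.20 and its activator Map2k4 by 0.52 ± 0.14 in the authors' deposited table. Map2k1, which encodes the ERK activator MEK1, fell by 0.79 ± 0.16 and Map3k5 by 0.68 ± 0.18 (the authors' deposited table), with Map3k7 at -0.04 ± 0.14. Of 12 dual specificity phosphatases besides Dusp1 tested in culture, 2 rose and 2 fell, against the same shares. Dusp8 rose by 1.18 ± 0.16, Dusp10 by 0.79 ± 0.28, and Dusp14 fell by 1.41 ± 0.20 and Dusp3 by 0.48 ± 0.18 (the authors' deposited table), with Dusp7 at 0.28 ± 0.15. Of 13 in callosum, Dusp10, a phosphatase of JNK and p38, rose by 0.72 ± 0.17 (adjusted p = 0.00173; the authors' deposited table), with Dusp3 at 0.00 ± 0.16.

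Of 16 serum response and CREB pathway genes, 3 rose and 2 fell in culture, a share near the 28.6% of all tested genes. Srf, which encodes the factor that binds CArG boxes, rose by 0.55 ± 0.15, its partner Elk1 by 0.49 ± 0.15 and Creb1 by 0.54 ± 0.16 in the authors' deposited table. The partners Elk3 fell by 0.47 ± 0.18 and Elk4 by 0.43 ± 0.16 (the authors' deposited table), with Crebbp at 0.25 ± 0.14. In callosum 1 of 16 rose, Elk3 by 0.46 ± 0.13 (adjusted p = 0.0270; the authors' deposited table), with Mef2c at 0.04 ± 0.40. Of 15 integrated stress response genes, which share regulators with Atf3, 4 rose and 1 fell in culture, against 13.3% and 15.2% of all tested genes. Asns rose by 0.66 ± 0.13, Vldlr by 0.68 ± 0.15 and Chac1 by 1.12 ± 0.35, and Gadd45a fell by 0.80 ± 0.19 (the authors' deposited table), with Slc7a11 at -0.65 ± 0.27. In callosum, where Atf3 rose, 0 of 14 were called by the deposited DESeq2 test (2 at an unadjusted p under 0.05), with a median of 0.05 and Psat1 at 0.32 ± 0.16 in the authors' deposited table.

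Of 19 genes often listed as AP-1 targets, 13 were tested in callosum. Of these 13, 5 rose and none fell (median 0.77), against 2.09% higher among all tested genes. The macrophage elastase gene Mmp12 rose by 3.97 ± 0.50, and the urokinase gene Plau by 1.52 ± 0.28 in the authors' deposited table. Mmp12 was near the floor, at 0.0648 CPM in WT and 1.03 CPM in Qk-KO, so its fold rests on very few WT reads. Spp1, which encodes osteopontin, rose there from 11.2 to 32.1 CPM (adjusted p = 1.89e-08). The filament gene Vim had 1.06 ± 0.36 without passing (adjusted p = 0.125) in the authors' deposited table. In culture 10 of the list were tested, of which 2 rose and 3 fell (median -0.53), against 13.3% higher and 15.2% lower among all tested genes. Timp1 fell by 2.49 ± 0.46, Mmp14 by 1.24 ± 0.17 and the haem-degrading Hmox1 by 0.99 ± 0.22, while the cyclin gene Ccnd1 rose by 0.56 ± 0.17 (the authors' deposited table).

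**Figure D5:**
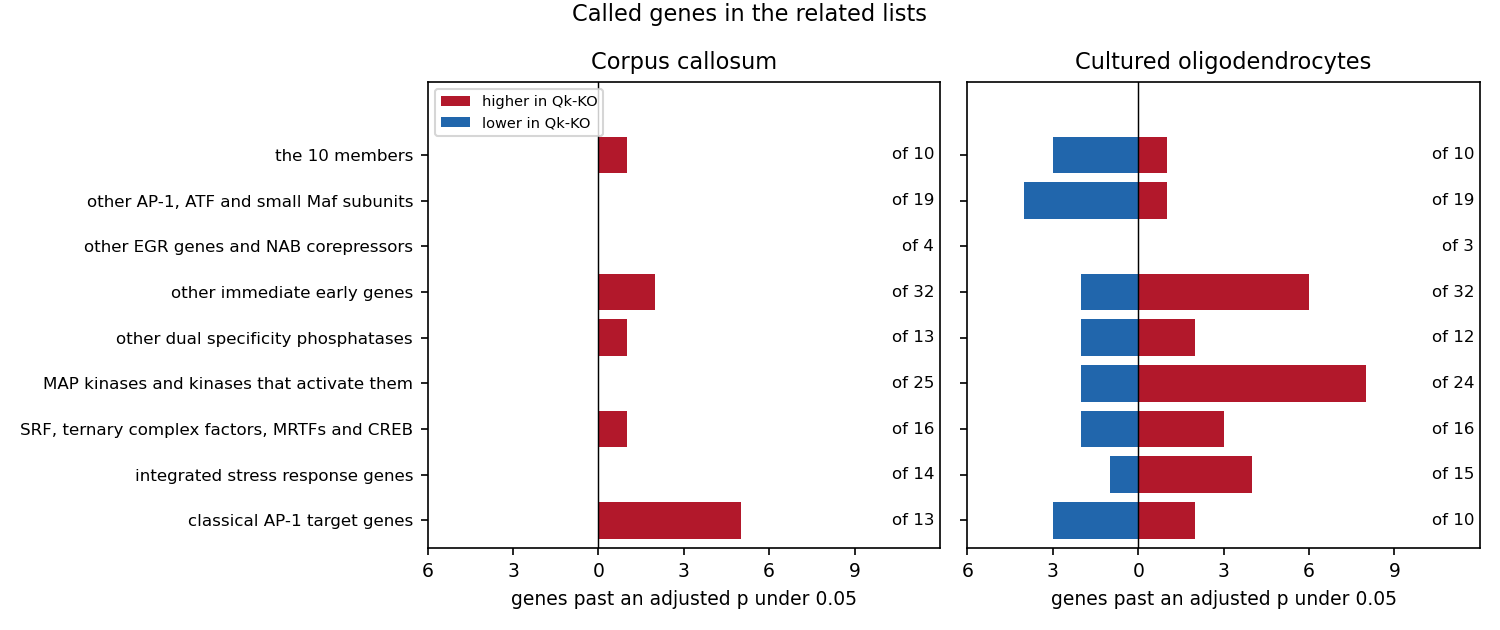
Number of genes called higher (red, to the right) and lower (blue, to the left) in libraries labelled Qk-KO for the 10 members and 8 related lists, with the number tested at the right edge, in corpus callosum (left) and culture (right). Callosum shows calls to the right only, led by 5 of 13 AP-1 targets, and culture shows calls on both sides for most lists.

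Markers of cell types moved beside these results. Their counts are to be read against all tested genes, of which 2.09% were called higher and 0.231% lower in callosum. In culture these shares were 13.3% and 15.2%. In callosum, 12 of 15 microglia markers rose and none fell, and the 15 summed to 442 CPM in WT against 983 CPM in Qk-KO, with Csf1r at 0.87 ± 0.16 in the authors' deposited table. None of the 15 was at 0 there. Of the 12 oligodendrocyte markers 4 rose, with a summed level of 8074 and 8481 CPM. Of the 10 astrocyte markers 2 rose, with a summed level of 4957 and 6125 CPM, and the 10 neuron markers summed to 6015 and 5583 CPM with 0 called by the deposited DESeq2 test (1 at an unadjusted p under 0.05). The part of these cells in the rise of Atf3 and of the AP-1 targets was not tested. In culture, 8 of 10 astrocyte markers fell and their sum went from 13725 to 4126 CPM, while 7 of 10 neuron markers rose and their sum went from 767 to 1786 CPM. Their part in the changes of Egr2, Fos, Egr1 and Dusp1 was not tested. Microglia markers were scarce in culture, where C1qa, C1qb, C1qc, Itgam and Trem2 were listed at 0 and the 15 summed to 23.5 CPM in WT and 14.8 CPM in Qk-KO. Oligodendrocyte markers summed to 3248 CPM in WT culture and 2605 CPM in Qk-KO, with 2 of 12 higher and 2 lower, a share near that of all tested genes. Endothelial and mural markers summed to 393 and 368 CPM in callosum and 14.5 and 10.5 CPM in culture (Cldn5 at 0), and blood markers to 130 and 157 CPM in callosum, with 4 of 5 at 0 in culture.

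The genes whose pair of log2 changes lay nearest to a member's were named by distance over the 2 comparisons, across the 16601 genes tested in both. For Atf3 they were Cxcl5, Casr, C3, Plau and Ctsz, at distances of 0.06 to 0.37 log2 units. The complement gene C3 had 1.86 in callosum and -0.59 in culture, and the cathepsin gene Ctsz 1.42 and -0.94, in the authors' deposited table. For Egr2 they were Plcg2, Tcf24, Aqp4, Cd63 and a transcript known only by a clone name, at 0.07 to 0.12. The phospholipase gene Plcg2 had 0.67 and -1.26, the astrocyte water channel gene Aqp4 0.69 and -1.22 and the tetraspanin gene Cd63 0.62 and -1.27 in the authors' deposited table. A likeness over 2 comparisons is a description only.

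In the GENCODE M21 annotation of GRCm38, Atf3 (ENSMUSG00000026628.13) spans chromosome 1 from 191170296 to 191218039, Egr2 (ENSMUSG00000037868.15) chromosome 10 from 67535475 to 67542188, Fos (ENSMUSG00000021250.13) chromosome 12 from 85473890 to 85477273, and Dusp1 (ENSMUSG00000024190.6) chromosome 17 from 26505590 to 26562128. Fos, Fosb, Fosl2, Egr1 and Egr2 overlap no other gene there. The Junb span overlaps Prdx2 and the Dusp1 span overlaps Ergic1, each on the opposite strand, and Jun overlaps the antisense gene Junos. The Dusp1 span also overlaps the processed pseudogene AC122252.4 and the sense intronic gene AC122252.1 on its own strand, and the pseudogene Gm8225 on the other. Jund overlaps the antisense gene Gm11175, and Atf3 the small RNA gene Gm24748 on the opposite strand, both listed at 0. The strand setting of the counting is not given in the sources used here, so reads in the shared stretches cannot be told apart. Prdx2 had -0.11 ± 0.13 in callosum and 0.23 ± 0.13 in culture, and Ergic1 had -0.07 ± 0.10 and 0.17 ± 0.12, none of them called, in the authors' deposited table.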

How the data were processed

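RNA-seq libraries of corpus callosum (4 labelled WT, 4 labelled Qk-KO) and of cultured oligodendrocytes (3 and 3) were available as 2 tables of gene statistics. The submitters' processing notes list FastQC, TopHat2 (2.0.14), featureCounts, DESeq2 and the mm10 build, with no settings. The library columns hold log2 values the authors deposited. Within a genotype the libraries differ by 1 factor at every gene with a mean above 5 (within 1e-09), so these are log2 of fitted means plus 1, without replicate spread. The deposited mean column is a normalized signal per gene, per the file headers. Fold changes were deposited as WT over Qk-KO and are given here with the sign reversed; the authors' score is that change over its SE, and the deposited p-value columns hold the Wald p and its Benjamini-Hochberg adjusted value. No test could be refitted, so calls are the deposited ones. The processing notes do not say whether the fold changes were shrunk (pulled toward no change). In culture the SE was 0.32 for Laptm5 at a mean of 0.17, against 0.70 for Ccl2 at a mean of 5.57. An SE that falls at such low means can come from shrinkage. Folds, fitted levels and intervals may therefore understate differences, to an unlike degree in callosum and culture.

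Fitted CPM, CPM per kilobase of merged GENCODE M21 exons (matched for 19836 of 19935 tested genes in callosum and 17427 of 17503 in culture), 95% normal intervals and the z test between systems were computed in Python 3.11.15 with scipy 1.17.1. The z test and the adjustment were tested on simulated data. Those values were drawn from a normal distribution with the deposited SEs taken as true. The simulation therefore checks the computation only, and not whether the SEs or the normal reference hold. Named genes are the 10 members, Qk, up to 3 called genes per direction and table of each of 8 related lists with the most abundant gene that did not pass, the 2 most abundant of each of 6 marker lists in WT, and the 5 genes nearest to the member with the smallest adjusted p per table, leaving out predicted genes and pseudogenes. Other named genes were chosen after their values were seen. Some genes the rule names are not reported here. The members and lists were chosen with earlier results of these data known. RefSeq promoter windows were matched by symbol for 9 members. Intervals cover the model's error only.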

Additional observations from a re-analysis of the deposited data

Results flagged for a closer look

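Among the members, 5 had a log2 change (labelled Qk-KO minus WT) that differed between the systems. This was by a test of the difference itself (z test on the DESeq2 estimates, adjusted over all genes tested in both tables). The log2 change in culture minus that in callosum was -1.47 for Fos, -2.61 for Atf3, -1.24 for Egr1, -2.03 for Egr2 and 0.85 for Dusp1. The systems also differ in cell makeup, inducing agent and library depth, which cannot be told apart from the system itself. The contrasts are unlike as well. In callosum, mice of both labels were given tamoxifen, and the WT mice held a floxed Qk copy and the Cre. In culture the treatment went with the label, with EtOH for each WT culture. A called difference therefore cannot be read as the same genotype effect differing between systems.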

How the results depend on the processing

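Of 170 values for single members under the alternatives, 158 kept their direction and their side of the threshold, 10 lost the call, 1 gained it (Atf3 in culture, at an adjusted p under 0.1) and 1 changed sign, Fosl2 in callosum, which had 0.01 (0.0060 before rounding) under library size scaling against -0.02. Only library size scaling and centring on the median shift the log2 values, so no direction could change under the others. A member not called at first could not gain a call under the stricter settings. The 158 is therefore in large part fixed by the settings and does not measure robustness. With a t distribution as the reference for the score, 0 members were called in callosum and 0 in culture (DESeq2 called 1 and 4), 2 were called for the difference between systems, and 0 genes of the related lists were called in either table, against 9 in callosum and 42 in culture. Over all genes that setting called 8 of 19935 in callosum, 0 of 17503 in culture and 1970 of 16601 for the difference, so its counts of 0 are not particular to the members or lists. At an adjusted p under 0.01, 2 members were called in culture, and 5 genes of the related lists in callosum and 27 in culture. With at least 1.5-fold, 27 genes of those lists were called in culture. Library size scaling, centring on the median and no filter on low means changed no count of called members. Over all genes in culture, library size scaling turned the split of 2336 higher and 2667 lower to 3054 and 2296. No paired analysis was possible because the deposited columns hold fitted means with no replicate spread, and for the same reason no replicate could be left out. The fitted levels of Atf3, Egr2 and Fosb stay below 5 CPM, and how depth limits each member was not compared.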
